A study of Mus musculus with 12 samples.

Results

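Motile cilium genes were followed through RNA sequencing of lung epithelial cells from mice given saline, lipopolysaccharide or bleomycin. They were taken by name from the deposited gene tables: the families Dnah, Dnai, Dnal, Dnaic, Tekt, Cfap, Rsph, Ift, Spag and Drc, plus Dynlrb2, Ak7, Ak8, Foxj1, Tppp3, Rfx2, Rfx3, Hydin, Ccdc39, Ccdc40 and Pifo. Of 14179 genes listed in at least 1 table, 88 met this rule. Mcidas was also in the rule but is not listed, and Spag5 is listed only in the table of the 2-week bleomycin group.

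The mice were C57BL/6 and aged 8 to 10 weeks. The LPS group received lipopolysaccharide, a molecule of the outer membrane of Gram-negative bacteria that provokes lung inflammation, at 2 mg/kg for 1 day. The other treated groups received bleomycin, a drug that injures mouse lung and leads to fibrosis, at 1.5 U/kg for 2 weeks or 4 weeks, and both agents went into the trachea. Saline was the control, each group had 3 libraries, and the groups carried no other allele or agent in the labels. Cells from digested lung were depleted of cells bound by antibodies to CD16/32, CD45, CD31, CD90, Ter119 or PDGFRα, and EpCAM-positive cells were kept. The labels call them alveolar epithelial cells. EpCAM is carried by airway epithelium too, and the libraries held airway RNA: the summed level of 10 club and goblet cell markers was 13968 to 19196 FPKM in saline, beside 14931 to 19377 FPKM for 10 markers of alveolar type 2 cells. FPKM is a count of sequenced fragments corrected for the length of the transcript and for how many fragments the library gave. Nothing in the labels says that the libraries came from separate mice, so p-values measure the spread between libraries. In such bulk samples fewer ciliated cells and less cilium RNA per ciliated cell cannot be told apart.

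A motile cilium is built on an axoneme, a ring of doublet microtubules around a central pair. Dynein arms on the doublets generate bending, radial spokes and the nexin-dynein regulatory complex pass control signals from the centre to the arms, and intraflagellar transport carries building blocks to the tip. In the lung these cilia belong to the multiciliated cells of the airways, whose gene programme is switched on by FOXJ1 together with RFX factors, which bind the X-box in promoters of cilium genes.

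Promoter windows from RefSeq (GRCm38.p6), which cover 250 bases before and 50 bases after a transcript start, were matched for 73 of the 88 genes. They are shown because the regulators RFX2 and RFX3 are themselves members. In all, 10 patterns were searched on both strands. GTTGCCA, which holds 1 arm of the X-box, was in 14 of the 73 genes (19.2%), and in 4.85% of the listed genes with a window and 4.38% of all windows. The X-box in its loosest full form, with both arms and free bases between them, was in 7 of 73 (9.59%), against 1.2% of listed genes and 0.804% of windows. The 7 genes are Cfap44, Cfap45, Cfap61, Hydin, Pifo, Spag16 and Tekt4. Cfap44, Hydin and Pifo held both patterns, which overlapped in all 3. The other 5 X-box variants of 10 or more letters were in 1 or 2 of the 73 genes each, as was GTTGCCATG (2 genes, 0.683% of listed genes, 0.773% of windows). A forkhead-type form, TGTTTAC, was in 4 of 73 (5.48%), against 3.13% of listed genes and 3.65% of windows, and the looser TGTTTNC in 20 (27.4%), against 18.5% and 20.5%. These matches describe letters and not bound sites. The windows of Hydin and Pifo, where the pattern lies within the full X-box form, and of Drc1, whose RNA was lower than in saline after both agents, follow with GTTGCCA or its reverse complement in capitals.
Hydin promoter, chr8:110266727-110267026, plus strand: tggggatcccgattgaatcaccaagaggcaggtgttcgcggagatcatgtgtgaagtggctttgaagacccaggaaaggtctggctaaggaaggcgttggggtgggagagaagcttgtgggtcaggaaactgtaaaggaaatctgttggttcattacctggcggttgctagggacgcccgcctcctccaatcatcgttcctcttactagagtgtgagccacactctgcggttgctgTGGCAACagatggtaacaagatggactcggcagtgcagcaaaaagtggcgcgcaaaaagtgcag
Pifo promoter, chr3:106001448-106001747, minus strand: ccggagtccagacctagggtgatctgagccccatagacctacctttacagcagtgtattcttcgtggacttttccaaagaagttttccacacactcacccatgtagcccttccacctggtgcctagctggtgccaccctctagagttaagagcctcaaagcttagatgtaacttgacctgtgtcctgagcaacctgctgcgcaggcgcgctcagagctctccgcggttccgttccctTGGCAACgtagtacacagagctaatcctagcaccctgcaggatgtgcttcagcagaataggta
Drc1 promoter, chr5:30281143-30281442, plus strand: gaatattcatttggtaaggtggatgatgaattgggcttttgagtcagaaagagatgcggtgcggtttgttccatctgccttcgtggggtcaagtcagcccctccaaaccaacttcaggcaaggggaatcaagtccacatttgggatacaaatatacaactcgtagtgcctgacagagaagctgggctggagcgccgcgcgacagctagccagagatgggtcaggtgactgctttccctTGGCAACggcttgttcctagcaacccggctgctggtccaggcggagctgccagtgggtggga

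In saline the 88 genes spanned a wide range of levels. Tppp3, which codes for a tubulin-binding protein and is a marker of ciliated cells, was highest at 171 ± 5.83 FPKM (SD, n = 3). Dynlrb2, a roadblock-type dynein light chain, followed at 125 ± 12.3 FPKM. Foxj1 was at 58.3 ± 7.53 FPKM, the spoke-head gene Rsph1 at 48.0 ± 5.08 FPKM and the transport gene Ift43 at 47.5 ± 1.11 FPKM. The 12 dynein heavy chains lay between 0.584 and 5.73 FPKM. The median over the genes was between 4.94 and 5.70 FPKM in each saline library, and the sum of all of them made up 0.315% to 0.338% of each saline library's total FPKM. That share was 0.165% to 0.209% in the LPS libraries and 0.243% to 0.292% in the 2-week libraries.

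One library stood apart. In library 2 of the 4-week group 45.4% of genes listed in every table were at 0, against at most 0.577% in any other library, and its correlation across genes with the other 4-week libraries was 0.596 to 0.637, where all other pairs within a group were between 0.950 and 0.988. It listed 56 of 87 cilium genes at 0, among them Foxj1, Dynlrb2 and Hydin, while Cfap46 stood at 45.6 FPKM, Spag17 at 16.0 FPKM and Ift20 at 116 FPKM. Counts, medians and tested differences at 4 weeks are therefore given with and without it. The third 4-week column carries a number that matches no sample title and is called the library without a number.

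**Figure D1:**
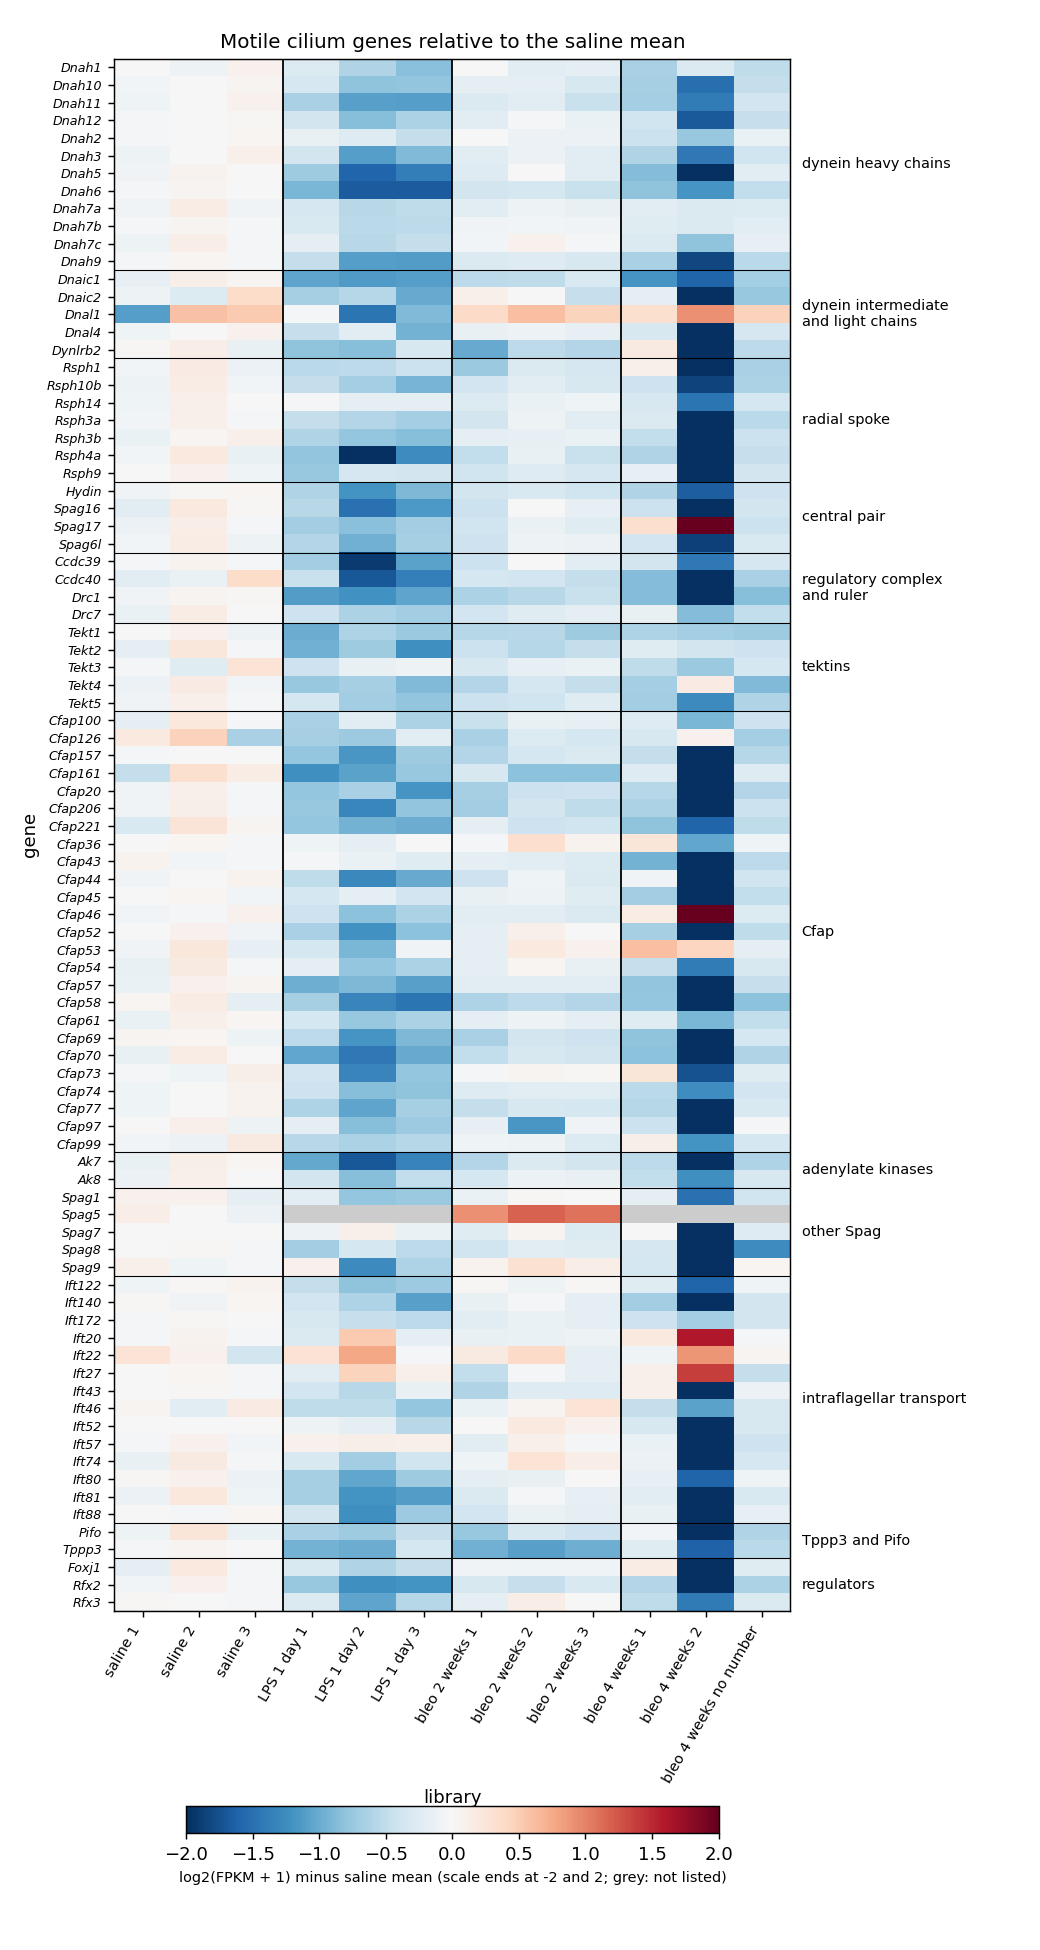
Each row is a cilium gene, grouped by role, and each column a library; colour gives log2(FPKM + 1) minus the mean of the 3 saline libraries, on a scale that ends at -2 and 2, with grey where the gene is not listed. The LPS columns are blue in most rows, the 2-week columns paler, and 4-week library 2 is unlike all other columns.

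After LPS for 1 day the cilium genes were lower almost throughout. Of 81 genes tested, 59 fell (72.8%) and 0 rose. Over all 12456 genes tested, 25.9% fell and 14.2% rose. A gene was tested if it had at least 1 FPKM in at least 3 libraries of the comparison, and called at an adjusted p under 0.05. At an unadjusted p under 0.05 the counts were 66 lower (81.5%) and 0 higher, and 50.6% of all genes passed in either direction. In the authors' deposited table at q under 0.05, 35 of 87 cilium genes were lower and 0 higher (12.6% and 8.16% of all its genes). The median difference on the log2(FPKM + 1) scale was -0.69 for the cilium genes and -0.22 for all genes. In 69 of the 81 genes (85.2%) every LPS library lay below every saline library, which held for 35.8% of all genes, and in 0 of them did every LPS library lie above every saline library (19.9% of all genes). Of the 59, 7 (Dnah1, Dnah11, Ift80, Cfap74, Cfap99, Cfap221 and Tekt5) passed the level filter only through saline and so could only have been lower. The same 7 are among the 66 and the 69, and their saline and LPS values could not have overlapped. The count depended on single libraries: it was 34, 29 and 28 without saline library 1, 2 and 3 in turn, and 39 without LPS library 3. Without those saline libraries 74, 73 and 73 genes were tested, as the 7 just named could not pass the level filter. Without saline library 2 or 3 another gene did not pass it either. The genes called whichever library was left out numbered 23, which could not include those 7.

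Of the 3 regulators tested 2 fell, and they were not compared with one another. Foxj1, the master regulator of motile ciliogenesis, was at 51.4, 66.3 and 57.3 FPKM in saline and 46.7, 37.7 and 41.5 FPKM after LPS. All LPS values were below all saline values, but the difference of -0.46 (SE 0.17) had an adjusted p of 0.0583 and did not pass. Rfx2 was at 5.84, 6.54 and 6.04 FPKM in saline and at 3.21, 2.04 and 2.12 FPKM after LPS. It fell by 1.06 on the log2 scale (SE 0.19, adjusted p = 0.003), and its LPS mean was 40.0% of its saline mean. Rfx3 fell by 0.64 (adjusted p = 0.0301).

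All 8 dynein heavy chains that could be tested fell, but Dnah1 and Dnah11 among them passed the level filter only through saline and so could only have been lower. Dnah5, a heavy chain of the outer dynein arm, was at 3.73, 4.18 and 3.94 FPKM in saline and 2.02, 0.654 and 0.896 FPKM after LPS. LPS library 1 kept the most of it, yet lay below every saline library. The difference was -1.23 (SE 0.23, adjusted p = 0.00388). The inner-arm chain Dnah6 had the lowest value of any cilium gene, at -1.41 (SE 0.23, adjusted p = 0.00194), with 5.51, 6.01 and 5.66 FPKM in saline and 2.58, 1.12 and 1.13 FPKM after LPS. Dnah9, another outer-arm chain, fell by 0.90 (adjusted p = 0.00746). The other 4, Dnah2, Dnah7a, Dnah7b and Dnah7c, were too low to test, and the last 3 are near-copies whose reads may be split between them. Over all 12 chains the median level as a percentage of the saline mean was 62.4%, 24.7% and 26.1% in LPS libraries 1, 2 and 3.

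Of the 5 intermediate and light chains, 3 fell. Dnaic1, an intermediate chain of the outer arm, went from 4.94, 6.18 and 5.91 FPKM to 2.21, 2.02 and 2.09 FPKM, a difference of -1.10 (SE 0.16, adjusted p = 0.00135). Its groups were well separated. Dynlrb2 went from 127, 136 and 112 FPKM to 70.8, 68.8 and 99.1 FPKM, a difference of -0.66 (SE 0.20, adjusted p = 0.0273). Dnaic2 also fell. Dnal4 did not pass (-0.54, adjusted p = 0.0729), nor did the outer-arm light chain Dnal1, which varied widely in saline itself, at 0.346, 3.29 and 3.11 FPKM.

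The parts that link and control the arms were lower too. All 4 genes of the regulatory complex and of the ruler that sets its spacing fell. Drc1, a core subunit of the nexin-dynein regulatory complex, was at 14.3, 15.6 and 15.3 FPKM in saline and 6.36, 5.91 and 6.67 FPKM after LPS. With libraries this close within each group, its adjusted p was 0.000882 for a difference of -1.13 (SE 0.16). The ruler genes Ccdc39 and Ccdc40 fell by 1.22 and 1.17 (SE 0.28 and 0.32, adjusted p = 0.01 and 0.019), and Drc7 by 0.58 (adjusted p = 0.0294). Ccdc39 was at 0.476 FPKM in LPS library 2 and at 2.43 FPKM in library 1, so the LPS libraries differed much among themselves.

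Of 7 radial spoke genes 5 fell, the strongest being the spoke-head gene Rsph4a, with 8.60, 10.4 and 8.01 FPKM in saline and 4.79, 1.40 and 3.17 FPKM after LPS. Its difference was -1.36 (SE 0.30, adjusted p = 0.00814). The more abundant Rsph1 went from 46.2, 53.7 and 44.0 FPKM to 32.6, 32.8 and 35.0 FPKM (-0.50, SE 0.16, adjusted p = 0.0323). Rsph3b, a stalk gene that shares sequence with Rsph3a, fell by 0.74 (adjusted p = 0.00758). Rsph9 did not pass (-0.49, adjusted p = 0.0536), although its groups did not overlap. All 4 central pair genes fell: Spag16 by 1.07, Hydin by 0.90, Spag17 by 0.75 and Spag6l by 0.74, with adjusted p-values from 0.00453 to 0.0127.

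Among the genes of the doublet wall and its attachments, 4 of 4 tektins tested and 17 of 24 Cfap genes tested fell. Of these, Tekt5, Cfap74, Cfap99 and Cfap221 passed the level filter only through saline and so could only have been lower. Tekt1, which codes for a filament protein inside the doublets, was at 15.2, 16.1 and 14.1 FPKM in saline and 7.12, 9.46 and 8.62 FPKM after LPS (-0.79, SE 0.17, adjusted p = 0.00729). Tekt2 fell by 0.97 and Tekt4 by 0.77. Cfap20, a protein of the inner junction between the doublet's tubules, went from 37.4, 42.3 and 38.1 FPKM to 22.5, 24.7 and 16.7 FPKM (-0.87, adjusted p = 0.00673). Cfap206 fell by 0.95 and Cfap58 by 1.15. Cfap126, a basal body docking gene also called Flattop, overlapped between groups and did not pass (-0.54, adjusted p = 0.163).

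Both axonemal adenylate kinases, enzymes that interconvert adenine nucleotides, fell. Ak7 was at 14.9, 18.0 and 17.2 FPKM in saline and 7.66, 4.42 and 5.97 FPKM after LPS, a difference of -1.36 (SE 0.21, adjusted p = 0.00145), and its LPS mean was 36.0% of the saline mean. Ak8 fell by 0.57 (adjusted p = 0.0403). Tppp3 fell from 166, 177 and 169 FPKM to 87.8, 85.6 and 134 FPKM (-0.76, SE 0.21, adjusted p = 0.0205), with LPS library 3 the highest of the treated ones. Pifo fell by 0.61 (adjusted p = 0.0242).

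Intraflagellar transport, which every cilium uses and which is not particular to motile ones, had a smaller share of called genes: 6 of 14 fell (Ift46, Ift80, Ift81, Ift88, Ift122 and Ift140). Ift80 passed the level filter only through saline and so could only have been lower. The difference in share between roles was not tested. The 3 most abundant transport genes did not pass. Ift43 had a difference of -0.36 (adjusted p = 0.108). Ift20, whose product also works at the Golgi, was at 36.4, 39.6 and 36.5 FPKM in saline and 30.5, 54.6 and 32.7 FPKM after LPS, and Ift27, a small GTPase, was at 30.5, 31.7 and 29.9 FPKM and 26.2, 42.3 and 33.0 FPKM, so the LPS libraries lay on both sides of saline. For both, the sign of the difference turned negative when library totals were made equal. Of the 4 other Spag genes tested, Spag1 and Spag8 fell. Spag7, at a difference of -0.04, and Spag9, a signalling scaffold with no axonemal role, did not pass.

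**Figure D2:**
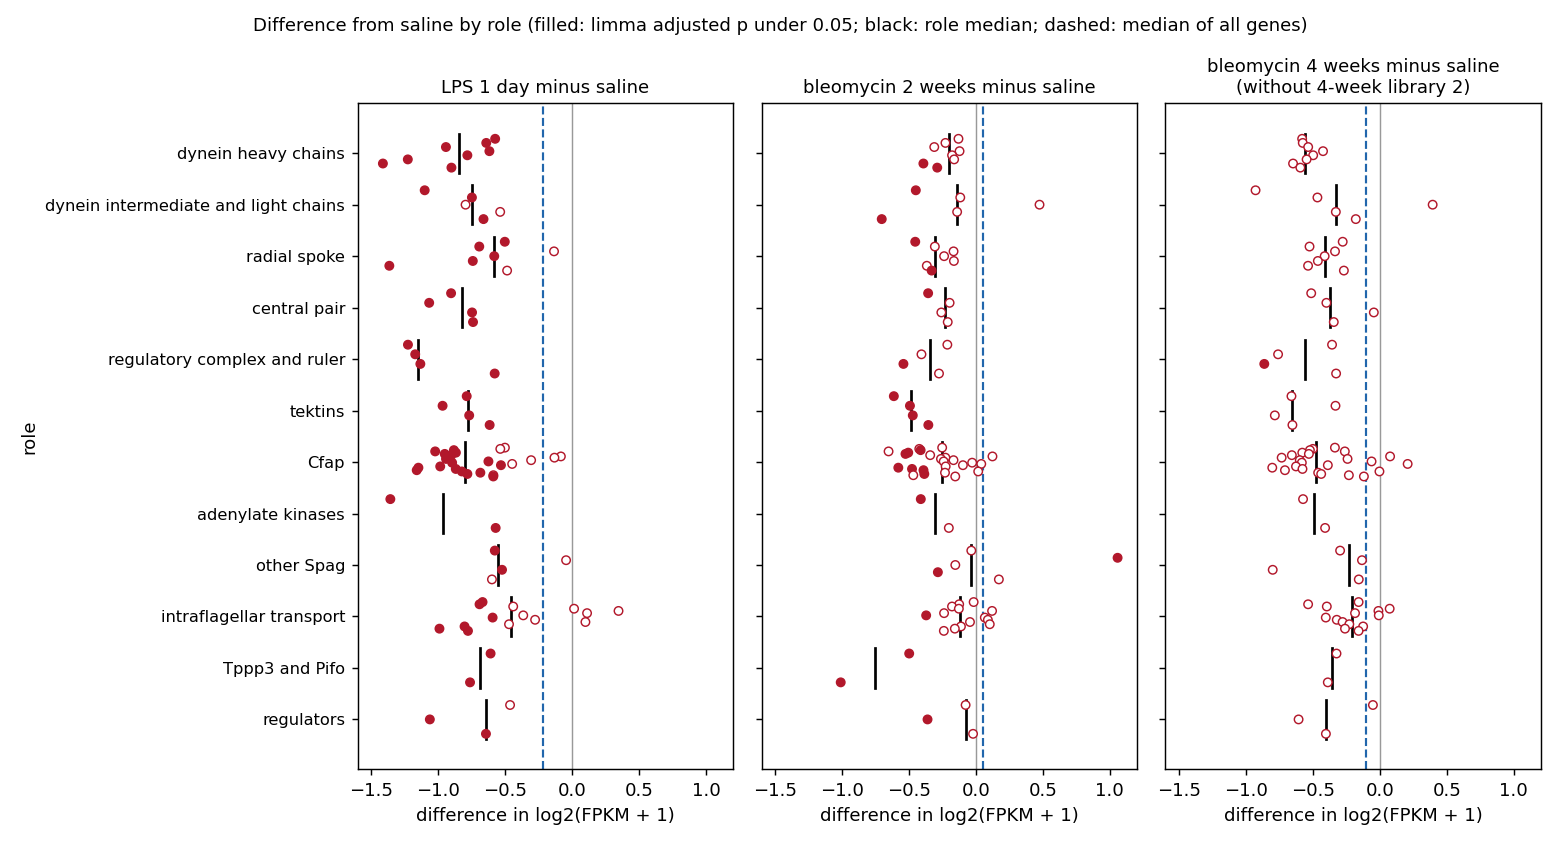
Each point is a gene's difference from saline in log2(FPKM + 1), by role, for LPS, bleomycin at 2 weeks and bleomycin at 4 weeks without library 2; filled points passed at an adjusted p under 0.05, black bars are role medians and the dashed line is the median of all genes tested. After LPS every role median lies left of the dashed line, and at 2 weeks the tektins and Tppp3 with Pifo lie farthest to the left.

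Transcript length moved with the LPS result. In LPS libraries 2 and 3 long genes of every kind were lower than short ones: over all tested genes the median difference from the saline mean went from 0.30 for transcripts under 2000 bases to -0.79 for those of 8000 bases or more in library 2, and from 0.14 to -0.66 in library 3, against 0.06 to -0.16 in library 1. The cilium genes were lower than all genes in every length class. In the LPS comparison their median was -0.54 below 2000 bases (24 genes, all genes 0.16), -0.82 from 2000 to 4000 bases (30 genes, all genes -0.21), -0.69 from 4000 to 8000 bases (15 genes, all genes -0.44) and -0.71 above that (12 genes, all genes -0.55). For the longest class, to which the heavy chains belong, the median was thus close to that of other long genes, although all 12 fell and 41.0% of all genes of that length did. The 12 include the heavy chains Dnah1 and Dnah11, which passed the level filter only through saline and so could only have been lower. The part of length in the result was not tested further.

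**Figure D3:**
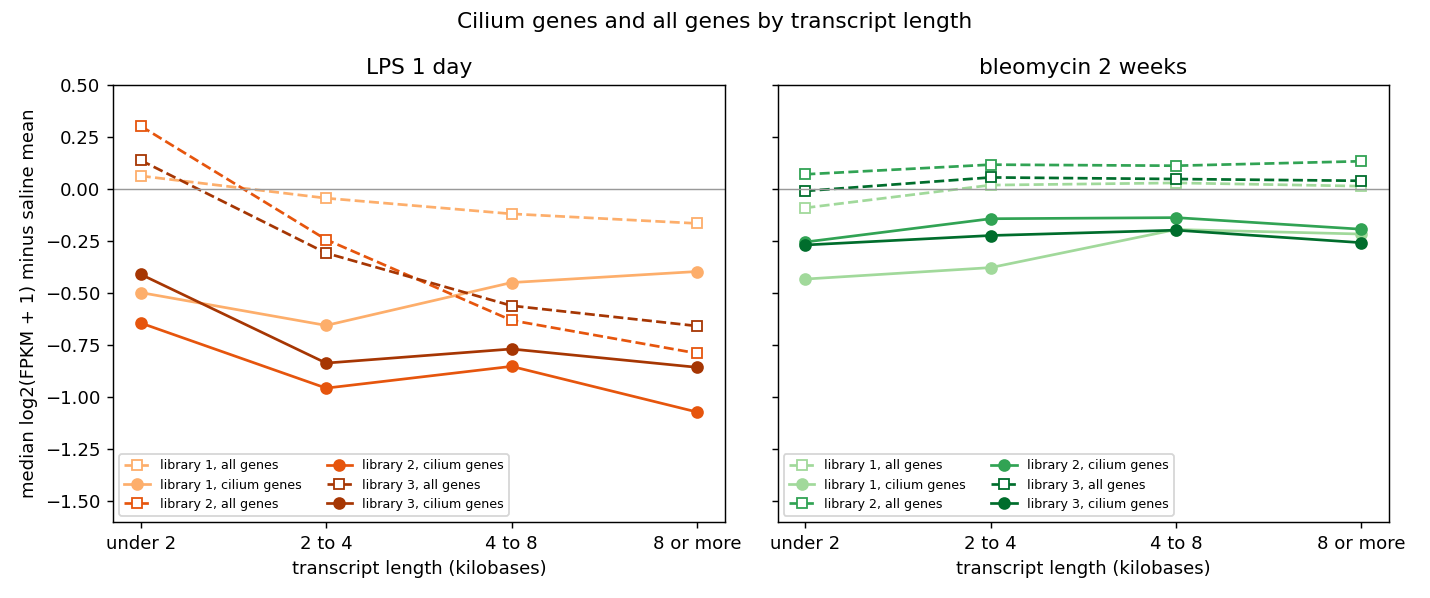
The vertical axis is the median of log2(FPKM + 1) minus the saline mean and the horizontal axis the transcript length class; filled circles are cilium genes, open squares all genes tested, with 1 colour for each library. In LPS libraries 2 and 3 the squares fall from 0.30 and 0.14 to -0.79 and -0.66 with length, while the circles lie below zero in every class, and at 2 weeks the squares stay near zero.

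Cell markers also moved. After LPS the summed level of 10 neutrophil markers was 4771 to 10969 FPKM against 393 to 832 FPKM in saline, and 9 of the 10 rose. Of 10 type 2 cell markers 7 fell and 1 rose, and Epcam went from 39.0, 46.2 and 38.8 FPKM to 25.9, 23.0 and 20.7 FPKM. Of 9 club and goblet cell markers tested, 4 fell and 3 rose (median -0.64). Of 30 other ciliated cell markers outside the naming rule, 18 fell and 0 rose (median -0.60), their sum going from 551 to 650 FPKM in saline to 390 to 506 FPKM. The part of these cells in the lower cilium gene levels was not tested.

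After bleomycin for 2 weeks fewer cilium genes were lower, and by less. Of 82 tested, 25 fell (30.5%) and 1 rose, against 11.8% and 18% of all 12725 genes. The median difference was -0.23, beside 0.05 for all genes. In 50 genes (61%) every 2-week library lay below every saline library, which held for 18.8% of all genes. At q under 0.05, 17 of 88 were lower and 1 higher in the authors' deposited table, in which 6.80% of genes were lower. The count was 9 and 12 without saline library 2 and 3, and 16 and 10 without 2-week library 1 and 3. It was 4 in 1 fit of 11 libraries, 9 when library totals were made equal and 37 with median-ratio scaling, and the last 2 move the median of all genes to 0.19 and -0.01. Relative to that median, the cilium genes' median stayed between -0.29 and -0.28.

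The largest change was in Tppp3. Its level was 86.8, 79.7 and 86.6 FPKM at 2 weeks, below the lowest saline value of 166 FPKM, a difference of -1.01 (SE 0.07, adjusted p = 0.000224), and its mean was 49.4% of the saline mean. Dynlrb2 fell from 127, 136 and 112 FPKM to 61.7, 86.7 and 82.6 FPKM (-0.70, SE 0.14, adjusted p = 0.0109). These are the 2 most abundant cilium genes in saline.

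The tektins fell together, 4 of 4 tested. Tekt1 went to 9.83, 9.94 and 8.89 FPKM (-0.61, SE 0.09, adjusted p = 0.0024), Tekt2 fell by 0.49 and Tekt4 by 0.47 (adjusted p = 0.02 and 0.0162). Drc1 went to 9.36, 9.92 and 10.8 FPKM, below all saline libraries and above all LPS libraries (-0.54 from saline, SE 0.08, adjusted p = 0.00365). Among 24 Cfap genes 7 fell, led by Cfap58 (-0.58, adjusted p = 0.00796), Cfap206 (-0.53, adjusted p = 0.0109) and Cfap20 (-0.51, adjusted p = 0.00877). Tppp3, Dynlrb2, Tekt1, Drc1, Cfap20, Cfap58 and Cfap206 were the 7 genes called whichever library was left out and under both other scalings. In 1 fit of 11 libraries Tppp3, Tekt1 and Drc1 passed. Dynlrb2, Cfap20, Cfap206 and Cfap58 did not pass there (limma adjusted p = 0.0510 to 0.0697).

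Other roles held 1 or 2 calls each. Dnah6 (-0.39, adjusted p = 0.0118) and Dnah9 (-0.29, adjusted p = 0.0347) fell of 8 heavy chains tested, whereas Dnah5, at 3.14, 3.94 and 3.22 FPKM, overlapped with saline (-0.16, adjusted p = 0.273). Rsph1, Rsph9, Hydin, Dnaic1, Ak7, Spag8, Pifo and Rfx2 also fell, by 0.28 to 0.50. Of the transport genes 1 of 14 fell, Ift43 (-0.37, adjusted p = 0.0377). Foxj1 was at 55.0, 54.6 and 55.3 FPKM, within the saline range, with a difference of -0.08 (SE 0.10, adjusted p = 0.602), and Rfx3 had -0.02 (adjusted p = 0.897). With equal totals the median of the transport genes, of the regulators, of the other Spag genes and of the dynein intermediate and light chains turned positive. The 1 gene that rose was Spag5, at 1.54, 2.06 and 1.87 FPKM from 0.483, 0.343 and 0.239 FPKM (1.06, adjusted p = 0.000755). It codes for a protein of the mitotic spindle, not of the axoneme, and passed the level filter only through the 2-week group, so it could only have been higher.

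At 2 weeks 10 of 10 type 2 cell markers fell, as did Epcam (22.9, 29.9 and 30.4 FPKM), and 7 of 10 macrophage and monocyte markers rose while 1 fell. Of 9 club and goblet cell markers tested, 6 fell and 0 rose (median -1.10). The summed level of all 10 was 4772 to 8240 FPKM, against 13968 to 19196 FPKM in saline. Among the 30 other ciliated cell markers 8 fell and 0 rose (median -0.29), including Ccdc153, an abundant ciliated cell gene, at 61.7, 71.2 and 67.0 FPKM against 95.8, 113 and 93.3 FPKM in saline. The part of cell content in these differences was not tested.

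Both comparisons use the same saline libraries, so their values are set side by side and not correlated. Of the genes called lower, 23 were called in both, which is 39.0% of the LPS list and 92% of the 2-week list. Ift43 and Rsph9 were called at 2 weeks only, and neither was shown to differ between the treatments (direct difference 0.01 and -0.15). In the direct comparison of LPS with 2 weeks of bleomycin, 30 of 76 genes tested (39.5%) were lower after LPS and 0 higher. Of all genes 23.8% were lower and 10.4% higher. At an unadjusted p under 0.05 the counts were 42 (55.3%) and 0, and 47.5% of all genes passed in either direction. The median was -0.47, and -0.25 for all genes. Of the 30, Ift80 and Cfap221 passed the level filter only through the 2-week group.

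Dnah5 (-1.06, SE 0.23, adjusted p = 0.00726), Dnah6 (-1.02, SE 0.22, adjusted p = 0.00794), Ccdc39 (-1.01, SE 0.29, adjusted p = 0.0236), Rsph4a (-0.997, SE 0.30, adjusted p = 0.0286) and Ak7 (-0.95, SE 0.21, adjusted p = 0.00929) were lower after LPS than at 2 weeks. So was Dnal1, at 1.78, 0.0464 and 0.562 FPKM against 2.75, 3.35 and 2.91 FPKM (-1.27, SE 0.30, adjusted p = 0.0109). Tppp3 and Dynlrb2 were not separated between the treatments, with differences of 0.25 (SE 0.21, adjusted p = 0.371) and 0.04 (SE 0.22, adjusted p = 0.893). The count of 30 was 8 without LPS library 3 and 9, 7 and 5 without 2-week library 1, 2 and 3. In the last 3 fits 74 genes were tested. The count was 57 with equal totals and 13 with median-ratio scaling, which move the median of all genes to -0.53 and 0.02. Ak7 and Cfap57 were the genes called under each of these. Long genes again carried more of the difference: below 2000 bases 1 of 23 genes was called, against 10.4% of all genes, and at 8000 bases or more 7 of 10, against 42.4%, where all genes of that length had a median of -0.57, the same as the cilium genes.

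**Figure D4:**
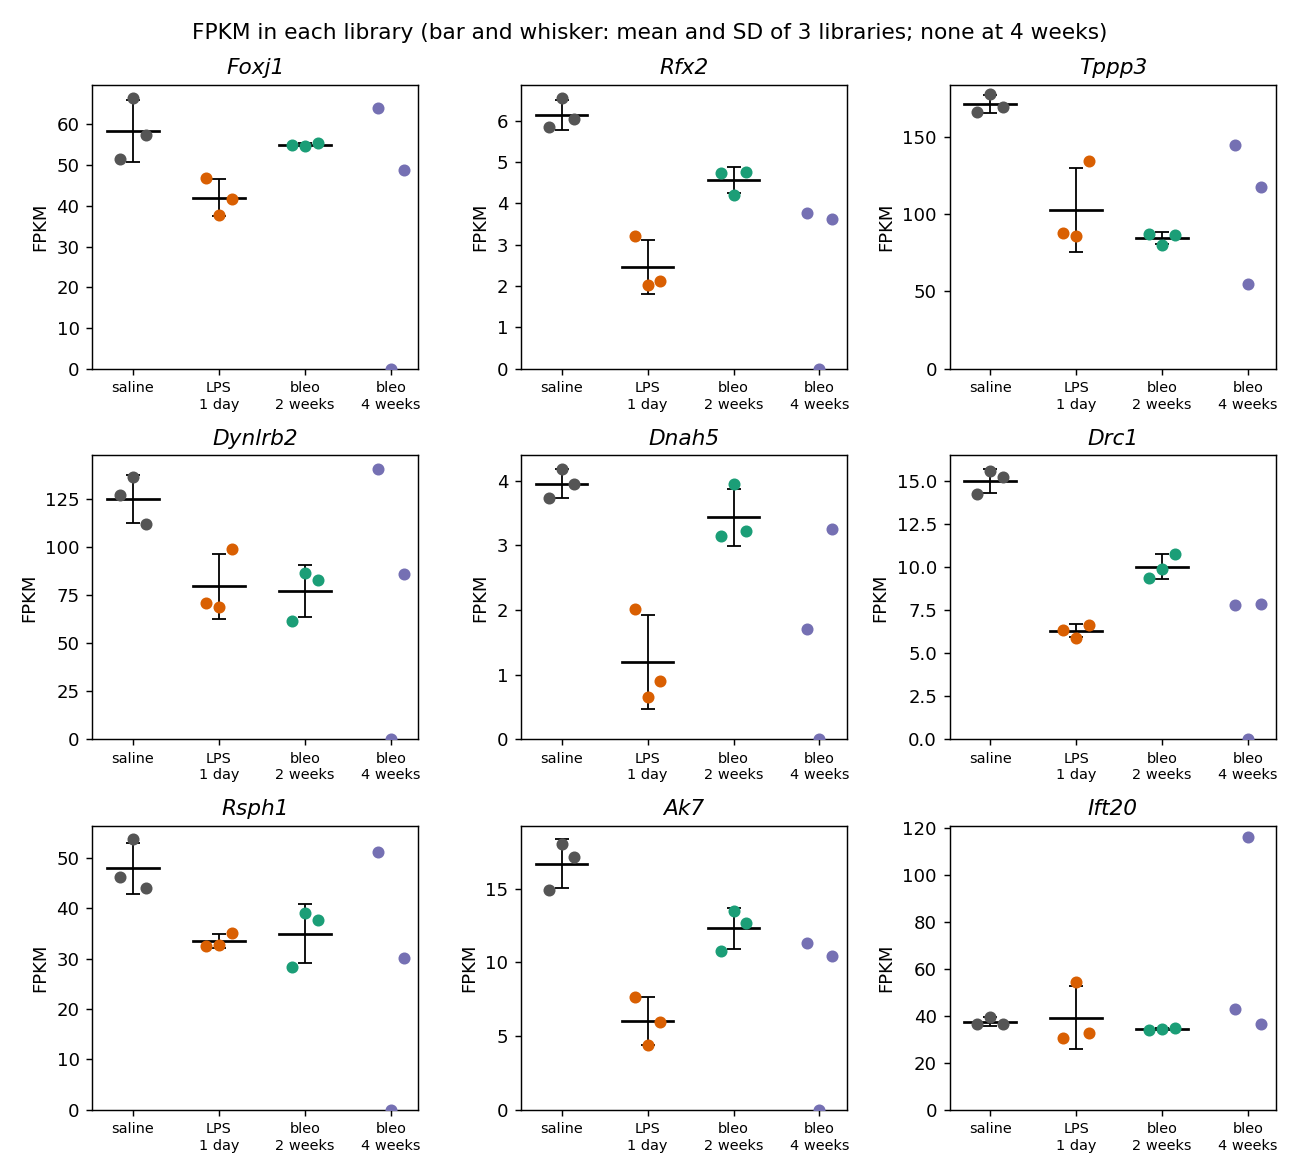
Each point is the FPKM of a library, for 9 genes in the 4 groups; the bar and whisker are the mean and SD of 3 libraries, left out at 4 weeks. Foxj1 at 2 weeks lies within the saline range while Tppp3 does not, and the 0 values at 4 weeks belong to library 2.

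At 4 weeks after bleomycin the test called no cilium gene when library 2 was included (0 lower and 0 higher of 81, 9 lower at an unadjusted p under 0.05, 2.45% of all genes in either direction at that p, and 0% of all genes called in each direction). The authors' deposited table also had 0 cilium genes at q under 0.05. Without library 2, 1 gene fell, Drc1, and 0.651% of all genes were called lower and 0.79% higher. Drc1 was at 7.79 FPKM in library 1 and 7.84 FPKM in the library without a number, 52.0% of the saline mean, a difference of -0.86 (SE 0.11, adjusted p = 0.0264). With library 2, which listed Drc1 at 0, its difference was -1.91 (adjusted p = 0.541). At an unadjusted p under 0.05 and without library 2, 48 of the 81 genes were lower and 0 higher (59.3%), against 21.2% of all genes in either direction. The median difference was -0.97 with library 2, against -0.64 for all genes, and -0.40 without it, against -0.11. In 58 of 81 genes (71.6%) both remaining libraries lay below every saline library, as for 29.8% of all genes. Dnah1, Tekt5 and Cfap74 passed the level filter only through saline, with or without library 2. They could only have been lower, and they are among the 58.

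The remaining 4-week libraries differed by gene. In library 1 and the library without a number, Foxj1 was at 64.1 and 48.9 FPKM, around the saline values, and Dynlrb2 at 141 and 86.0 FPKM. Rsph1 was at 51.3 FPKM, within the saline range, and 30.0 FPKM, below it. Rfx2, at 3.76 and 3.62 FPKM, Tekt1, at 9.55 and 8.88 FPKM, and Dnaic1, at 1.94 and 3.17 FPKM, were below all saline libraries, with differences of -0.61, -0.66 and -0.93 that did not pass (adjusted p = 0.0675, 0.0584 and 0.0687), although Dnaic1 did in the fit of 11 libraries (adjusted p = 0.0254). With library 2, where Rfx2 was listed at 0, Tekt1 at 9.09 FPKM and Dnaic1 at 1.19 FPKM, their differences were -1.35, -0.66 and -1.15 (adjusted p = 0.541 for each). The 14 transport genes had medians of 85.9% and 77.3% of the saline mean and the 12 heavy chains 47.6% and 61.9%, and in library 2 both medians were 0%.

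Against 2 weeks, the 4-week libraries gave 0 calls with library 2 included (0 of 78 cilium genes also at an unadjusted p under 0.05, and 0% of all genes called). Without it, 1 gene was higher at 4 weeks, Tppp3, at 145 and 117 FPKM against 86.8, 79.7 and 86.6 FPKM (0.62, SE 0.15, adjusted p = 0.0431). Of all genes 1.95% were called higher and 7.34% lower. In 1 fit of the 11 libraries other than library 2 the same difference did not pass (adjusted p = 0.0983), and no cilium gene was called. Of the marker lists, 8 of 10 type 2 cell markers and 6 of 9 club and goblet cell markers tested were also higher at 4 weeks without library 2, and 6 of 10 macrophage and monocyte markers were lower; their part in the result was not tested. Both 4-week values were above every 2-week value and below every saline value. The median over the cilium genes was -0.16 without library 2, the same as that of all genes, and -0.70 with it, beside -0.69 for all genes.

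Genes that work with these but lie outside the naming rule were counted in lists. Of all genes tested, 25.9% fell and 14.2% rose after LPS, and 11.8% fell and 18% rose at 2 weeks. Whether the share of any list differed from these was not tested. All 4 outer-arm docking genes measured (Armc4, Ccdc114, Ccdc151 and Ttc25) fell after LPS, and Ccdc151 and Ttc25 fell at 2 weeks. Of 13 dynein arm assembly factors, which fold the arms in the cytoplasm, 4 fell after LPS (Dnaaf1, Dnaaf3, Lrrc6 and Zmynd10) and Dnaaf1 and Dnaaf3 at 2 weeks. Of 8 tested genes of the multiciliogenesis programme 4 fell after LPS: Ccno, Myb, Rfx1 and Trp73. Myb, an early regulator of the programme, went from 6.29, 6.00 and 5.45 FPKM to 2.63, 1.24 and 1.38 FPKM. At 2 weeks 0 of 10 fell and 2 rose, Plk4 and Tfdp1, which also serve dividing cells. In a list of 25 BBSome and transition zone genes, used by primary cilia as well, 15 fell and 1 rose after LPS, and 1 fell and 1 rose at 2 weeks. Of 12 cytoplasmic dynein genes 5 fell after LPS and 1 at 2 weeks.

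Some values have limits of identity. 16 of the 88 genes overlap another listed gene, 15 of them on the opposite strand, and no strand setting is given in the sources used here. Among the genes named above these are Rsph9, Ccdc39, Spag17, Dnal1, Dnaic1, Cfap61, Dnah11 and Ift140. Reads from a shared stretch may not be told apart from those of the partner gene. The overlaps were taken from whole gene spans, introns included, and whether exons are shared was not checked. No read counts were used, so the depth of each library is unknown and no counting interval can be given.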

How the data were processed

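RNA-seq tables of 12 libraries, 3 in each of 4 groups, were used. The authors deposited FPKM for every library, per the file headers. The authors' deposited tables also hold log2 group means and differences, a fold ratio, p-values and q-values from a test that is not named. The submitters' processing notes name HISAT2, StringTie and mm10, without versions. Each table lists protein-coding genes whose mean reached 0.5 FPKM in either of its groups. The 3 tables held the same saline values and were joined.

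Differences were tested with limma 3.58.1 in R 4.3.3 (two-sided, with a trend of variance on level), with the 6 libraries of each pair of groups and log2(FPKM + 1) as the response, over genes that reached 1 FPKM in 3 or more of them. P-values were adjusted by Benjamini-Hochberg over all genes tested, at a threshold of 0.05. Such differences understate changes near 1 FPKM. The code was tested on simulated data. The cilium genes, lists and tests were chosen with earlier results of these data known. Named genes were the 3 with the highest saline mean in each role, those listed singly in the rule, and, per comparison, up to 6 called genes with the largest differences each way; other genes of the rule and genes of other lists were named after their values were seen. Transcript length was that of the longest coding transcript in GENCODE M21. Depth is unknown for FPKM without counts, and no counting interval was computed. Other pseudocounts, filters, scalings, a joint fit, a replicate block and leaving out each library were tried.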

Additional observations from a re-analysis of the deposited data

Results flagged for a closer look

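Tppp3 differed between the bleomycin time points once 4-week library 2 was left out. Its difference, 4 weeks minus 2 weeks, was 0.62 on the log2(FPKM + 1) scale (SE 0.15, limma adjusted p = 0.0431), with both 4-week libraries above all 3 2-week libraries. With library 2 included the difference was 0.21 (SE 0.45, adjusted p = 0.736) and did not pass, nor did it in 1 fit of the 11 other libraries (adjusted p = 0.0983).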

How the results depend on the processing

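Counts of cilium genes called lower kept their direction throughout, and none was called higher after LPS in any setting. After LPS the count of 59 ranged from 28 to 64 when a library was left out and was 43 to 66 otherwise, and its median of -0.69 was -0.97 with a pseudocount of 0.1 and -0.50 with median-ratio scaling. At 2 weeks the count of 25 was 9 with equal totals, 4 in 1 fit of 11 libraries and 9 to 21 when a library was left out. The 1 gene called higher, Spag5, is not listed for the other treated groups, so the joint fit could not include it. Its count of genes higher was therefore fixed at 0. The count was also 0 without 2-week library 1, 2 or 3, where Spag5 could not pass the level filter. It was 1 when a saline library was left out. The median was -0.10 with equal totals. At 4 weeks the joint fit, which has no library 2, called 4 lower, leaving out a library gave 0 to 1, and the median was -1.98 with a pseudocount of 0.1. For LPS against 2 weeks the count of 30 was 57 with equal totals (median -0.71), 13 with median-ratio scaling (median -0.23) and 5 to 43 when a library was left out. For 4 weeks against 2 weeks the joint fit called 0, leaving out a library gave 0 to 1 higher, and the median was -1.66 with a pseudocount of 0.1. Apart from Spag5, the cause of these changes was not tested, beyond the fewer libraries of each fit that left one out.

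Among named genes that did not pass, signs turned as follows. After LPS, equal totals gave Ift20 -0.17 and Ift27 -0.0752, median-ratio scaling gave Spag7 0.22, and leaving out a library gave -0.24 to 0.17 for Ift20, -0.0583 to 0.278 for Ift27 and -0.12 to 0.00047 for Spag7. At 2 weeks equal totals gave Dnal4 0.0054, Foxj1 0.0792, Ift20 0.0272, Rfx3 0.0785 and Spag7 7.40e-05, and leaving out a library gave -0.163 to 0.0183 for Foxj1 and -0.100 to 0.0607 for Rfx3. At 4 weeks median-ratio scaling gave Cfap126 0.0859 and Tekt2 0.0196, the joint fit gave Ift27 -0.18 and Spag17 -0.0442, and leaving out a library gave -0.18 to 0.74 and -0.0442 to 1.24 for these.

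With the replicate number as a block the counts lower were 53 after LPS, 21 at 2 weeks, 0 at 4 weeks and 21 for LPS against 2 weeks. The correlation of same-numbered libraries' deviations was between -0.15 and 0.12, so the numbers showed no pairing.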
